A study of Oryza sativa with 6 samples.

Results

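Genes named for the enzyme families of jasmonate synthesis were compared between rice sro mutant and wild-type inflorescences. Of the 19 measured genes, 6 fell in sro, namely LOX2, LOX1.1, OsAOC, OsOPR7, OsOPR12 and OsJAR1, and AOS3 rose. OsOPR12 and AOS3 had signal near that of probe sets without target. OsAOC kept its call in only 3 of 6 comparisons with 1 array left out. With 1 probe set per gene and adjustment over those alone, 11 of the 19 were called, where 38.0% of all genes were. The largest falls were in LOX1.1, by 0.98 (SE 0.18), and in OsJAR1, by 0.89 (SE 0.10), both on the log2 scale, which leaves 0.507 and 0.540 of the wild-type level. The other 12 genes did not pass the test over all probe sets. Members were found by name. A gene of the RefSeq rice table was taken where its symbol or a synonym was LOX, AOS or OPR with a number, AOC or JAR1, with or without the prefix Os or CM-. Of 39387 genes in that table, 22 matched. Of these, 19 were represented on the array by 22 probe sets that name 1 gene, out of 57258 probe sets tested. LOX4, OsOPR3 and a second OPR1 locus (LOC112936094) had no such probe set and have no values here.

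Jasmonate is an oxylipin hormone of wounding, defence and reproductive development. Lipoxygenase (LOX) oxygenates a polyunsaturated fatty acid in the plastid, allene oxide synthase (AOS) turns the product into an unstable epoxide, and allene oxide cyclase (AOC) closes the ring. In the peroxisome, 12-oxo-phytodienoate reductase (OPR) reduces the ring before the side chain is shortened by beta-oxidation, and JAR1 joins the finished acid to isoleucine, which gives the form that the receptor COI1 and the JAZ repressors bind. In rice, loss of jasmonate synthesis or signalling disturbs spikelet organs, glume opening and male fertility.

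The data are 6 Affymetrix rice arrays, 3 of sro and 3 of wild type (abbreviated WT), each from a separate biological replicate of inflorescences 4 to 5 mm long, from plants of the paddy field. Wild type is the Japonica variety 9522, and the labels do not state the mutant's allele or background. P-values set the difference between genotypes against the spread between these replicates, and limma moderates that spread over all probe sets. At that length stamens and carpels have begun to form in most spikelets, and SRO expression is at its peak, per the study's design note; neither was measured here. The comparison asks which transcripts differ between the genotypes at that point. Values are log2 intensities per probe set. Levels of different probe sets cannot be set against each other, so each gene is compared only with itself.

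Array medians lay between 5.26 and 5.31, and pairs of arrays had correlations of 0.997 to 0.998 within a genotype and of 0.992 to 0.994 across genotypes, over all probe sets. Of 10 inflorescence and spikelet markers, 10 were above the mean of the probe sets for the fungus Magnaporthe (4.69 in sro and 4.65 in WT), which served as a level without target. By the brightest probe set of each, 4 of these 10 rose (MADS4, MADS16, MADS34 and MADS58) and 1 fell. The one that fell was LAX1, a regulator of axillary meristems, at 7.32 ± 0.10 in sro and 9.30 ± 0.90 in WT (SD, n = 3 each, adjusted p = 0.0107). Of 4 markers of pollen and late anther, 3 rose in sro, and RTS (4.31) and C6 (4.61) were below the Magnaporthe level in WT only. The mean over the list was 8.25 to 8.32 in sro against 5.02 to 5.88 in WT. C4, which was not called, varied in WT, with 5.79, 8.61 and 7.85 in replicates 1, 2 and 3, against 9.01 to 9.02 in sro. Of 3 leaf markers, 2 were above the Magnaporthe level and 1 fell, with a mean of 6.71 to 6.76 in sro and 7.05 to 7.18 in WT. Of 3 seed storage markers, 2 were above it and 0 were called by limma, with a mean of 6.96 to 7.05 in sro and 6.90 to 7.12 in WT. The dap labelling spike, measured at its 5 prime end, stood at 10.3, 7.95 and 9.48 in sro replicates 1, 2 and 3, against 7.55 to 7.77 in WT (p = 0.1 by a two-sided exact permutation test, which cannot go lower with 3 arrays a group). The difference between the 3 prime and 5 prime signals was 4.46, 4.94 and 4.90 for actin in sro replicates 1, 2 and 3, against 5.13 to 5.24 in WT. For GAPDH it was 1.29, 1.63 and 1.37 in sro, against 1.64 to 1.66 in WT. Neither overlapped between genotypes, sro replicate 2 included, and the exact permutation test gave p = 0.1 for each. The part of the marker and control differences in the results below was not tested. SRO was not checked, since no table used here names it. In whole inflorescences, fewer cells of a type and less RNA per cell cannot be told apart.

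A probe set was called where the limma p, adjusted by the Benjamini-Hochberg method over all probe sets tested, was under 0.05. Among all probe sets 14.6% were called, 5.59% higher and 9.04% lower in sro. Of the 22 member probe sets, 7 were called, 1 higher and 6 lower. Among all probe sets above the Magnaporthe level, 22.7% were called, with 14.5% lower. Of the 13 member probe sets above it, 6 were called, 5 of them lower. The 2 groups did not overlap in 12 of the 22 member probe sets, against 34.6% of all. A refit took the brightest probe set of each gene, adjusted over those alone. There 38.0% of all 17905 genes were called (26.8% lower), and 11 of the 19 members were called, 8 lower and 3 higher. The 11 were the 7 called above with LOX5 and OsOPR8, both lower, and OsOPR4 and OsOPR5, both higher. The median log2 change of all 22 member probe sets was -0.06, against 0.02 over all probe sets. Over the brightest probe set of each gene on the array it was -0.06. For the 13 member probe sets above the Magnaporthe level the median was -0.28, against 0.002 over all probe sets above it.

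**Figure D1:**
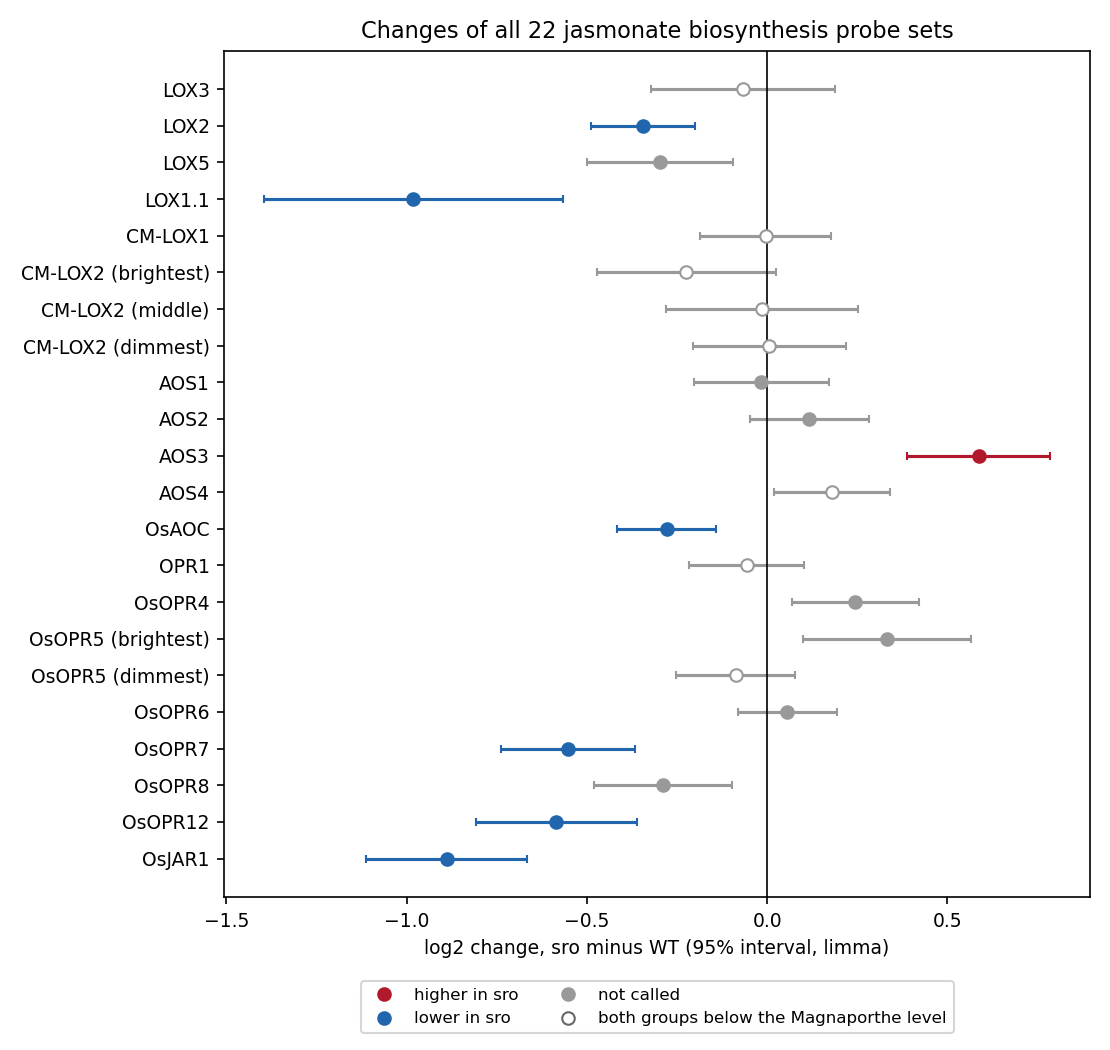
Log2 change of each member probe set, sro minus WT (horizontal axis), with its 95% interval from limma, ordered by enzyme from lipoxygenases at the top to OsJAR1 at the bottom. Blue points were called lower, the red point (AOS3) was called higher, grey points were not called, and open points had both groups below the Magnaporthe level; the called changes run from -0.98 for LOX1.1 to 0.59 for AOS3.

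A lipoxygenase opens the pathway, and 6 of the 7 genes matched by that name were measured, of which 2 fell. Which of these lipoxygenases act in jasmonate synthesis was not tested. LOX1.1 (LOC4334049, chromosome 3), a type 1 lipoxygenase by its name, stood at 7.18, 7.32 and 7.28 in the 3 sro arrays, against 7.77, 8.56 and 8.39 in the 3 WT arrays. The sro arrays lay close together and all below WT, where replicate 1 was lower than the other arrays. Means were 7.26 ± 0.07 in sro and 8.24 ± 0.41 in WT (SD, n = 3 each). Its log2 change was -0.98 (SE 0.18, adjusted p = 0.00967). Leaving out 1 array gave changes of -1.21 to -0.82, all past the threshold, whereas a linear model without moderation of the variances gave an adjusted p of 0.0996. LOX2 (LOC4331824, chromosome 3) fell by less, to 7.41, 7.36 and 7.31 in sro, against 7.72, 7.63 and 7.75 in WT. The groups were apart by more than the spread within either, and the log2 change was -0.34 (SE 0.06, adjusted p = 0.00925), or 0.788 of the WT level.

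LOX5 (LOC4333823) had values of 9.29, 9.34 and 9.31 in sro, against 9.42, 9.75 and 9.65 in WT. All sro arrays were below all WT arrays, and WT replicate 1 was again the lowest of its group. The log2 change of -0.30 (95% interval -0.50 to -0.09) missed the threshold with an adjusted p of 0.0602, and passed it without WT replicate 1 (-0.39, adjusted p = 0.0137). LOX3 (LOC4333818), which is also called r9-LOX1, and the neighbouring chromosome 8 genes CM-LOX1 (LOC4345993) and CM-LOX2 (LOC4345994) had 5 probe sets, all below the Magnaporthe level in both genotypes. LOX3 had values of 4.09, 4.17 and 4.38 in sro, against 4.47, 4.26 and 4.10 in WT. Their log2 changes lay between -0.22 and 0.01, the groups overlapped in each, and none of the 5 was called by limma (smallest unadjusted p 0.0703). LOX3, LOX4 and LOX5 lie near one another on chromosome 3, with 3 protein-coding genes between the first pair and 1 between the second. LOX5 was well above the Magnaporthe level and LOX3 below it.

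Allene oxide synthases commit the lipoxygenase product to jasmonate. All 4 genes were measured, and 1 was called. AOS3 (LOC4328742, chromosome 2) stood at 5.22, 5.30 and 5.44 in sro, against 4.63, 4.70 and 4.87 in WT. The sro arrays were all higher, and the WT mean of 4.73 was only just above the Magnaporthe mean of 4.65. The log2 change was 0.59 (SE 0.09, adjusted p = 0.00381), with WT at 0.666 of the sro level. AOS4 (LOC4328743) is the next protein-coding gene to AOS3. Its groups did not overlap either (4.16, 4.35 and 4.22 in sro, against 4.10, 4.09 and 4.00 in WT), but it lay below the Magnaporthe level in both and was not called (log2 change 0.18, adjusted p = 0.135).

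AOS1 (LOC4334233), also named PRECOCIOUS for the early phase change of its mutants, was not called. Its values were 6.68, 6.48 and 6.63 in sro, against 6.49, 6.66 and 6.69 in WT, so that the groups overlapped throughout. The change of -0.02 had a 95% interval of -0.20 to 0.17. AOS2 (LOC4332121) had values of 5.44, 5.49 and 5.34 in sro and of 5.36, 5.20 and 5.36 in WT. Its groups overlapped too, and the log2 change was 0.12 (95% interval -0.05 to 0.28, adjusted p = 0.33). Whether the change of AOS3 differs from those of the other AOS genes was not tested.

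OsAOC (LOC4333201, chromosome 3) is the only gene that the name AOC matched, and it is the gene of the jasmonate-deficient mutants cpm2 and hebiba. It had values of 10.49, 10.51 and 10.47 in sro, against 10.78, 10.70 and 10.82 in WT. The groups were narrow and did not overlap, and the fall was small, with a log2 change of -0.28 (SE 0.06, adjusted p = 0.0176) or 0.824 of the WT level. The call was lost in 3 of the 6 comparisons with 1 array fewer, where the change was -0.25 without WT replicate 3 (adjusted p = 0.0562), -0.28 without sro replicate 1 (0.057) and -0.27 without sro replicate 3 (0.0795).

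**Figure D2:**
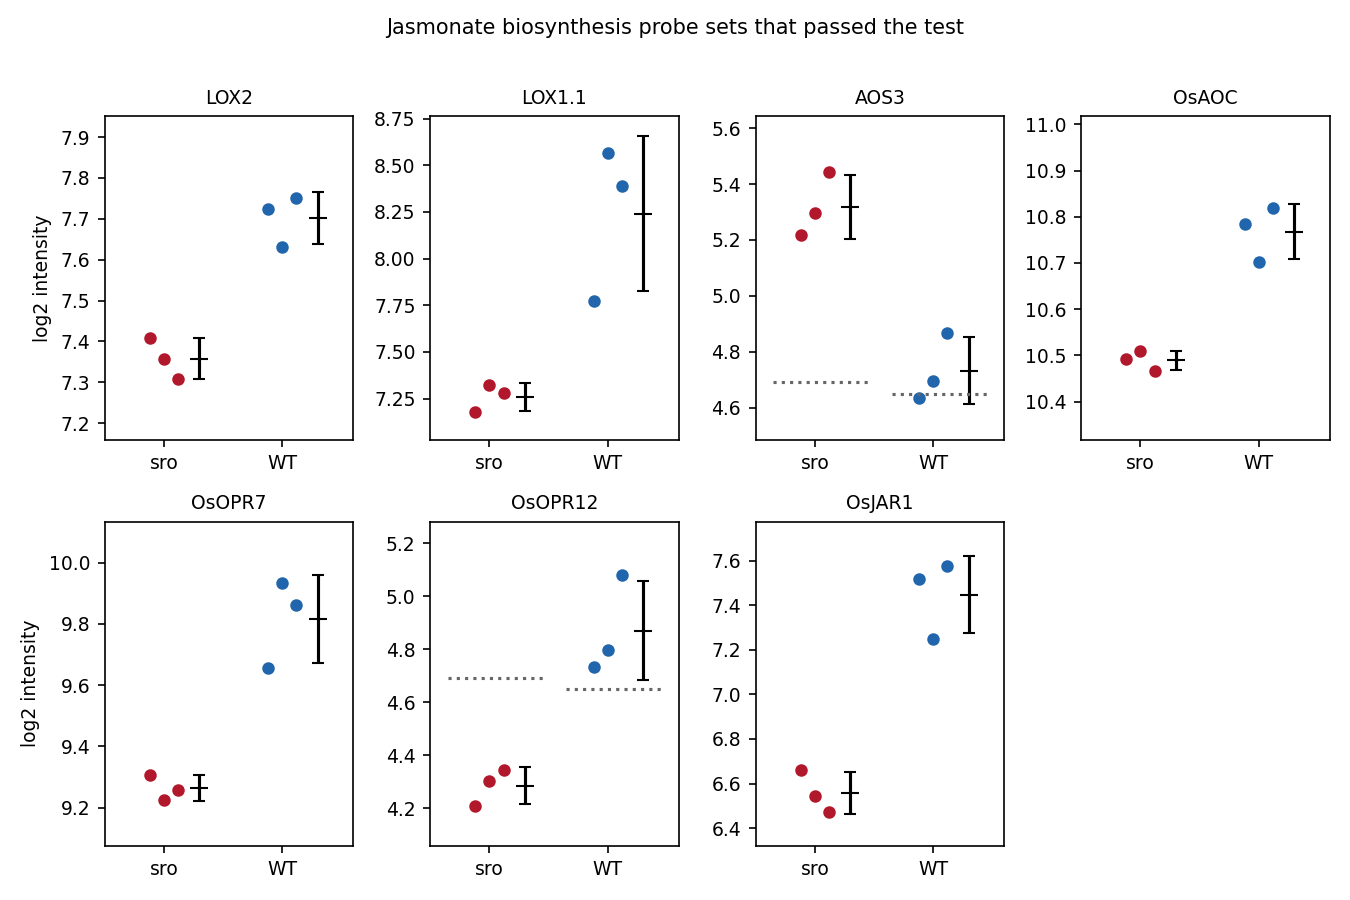
Log2 intensity (vertical axis, a separate scale per gene) of the 7 called members in the 3 sro arrays (red) and the 3 WT arrays (blue), with mean and SD beside them; dotted lines give each genotype's Magnaporthe mean where it falls in range. The groups are apart in each panel, sro is lower in 6 and higher for AOS3, and OsOPR12 in sro lies below the dotted line.

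Reductases of the OPR family were the largest group, with 7 of 9 matched genes measured by 8 probe sets. OsOPR7 (LOC4345762, chromosome 8), the rice reductase that acts in jasmonate synthesis and the gene of the open glume mutant og1, was at 9.31, 9.23 and 9.26 in sro. In WT it was at 9.66, 9.93 and 9.86. Every sro array was below every WT array, and WT replicate 1 was the lowest of its group, as in LOX1.1 and LOX5. Means were 9.26 ± 0.04 in sro and 9.82 ± 0.14 in WT (SD, n = 3 each). The log2 change was -0.55 (SE 0.08, adjusted p = 0.00371), or 0.682 of the WT level. OsOPR8 (LOC4329684, chromosome 2) also had groups that did not overlap, with 7.22, 7.42 and 7.21 in sro, against 7.56, 7.47 and 7.68 in WT. Its log2 change of -0.29 (95% interval -0.48 to -0.10) narrowly missed the threshold (adjusted p = 0.0537). It passed it without sro replicate 2 (-0.36, adjusted p = 0.0372).

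OsOPR12 (LOC107279821, chromosome 4) was called lower but stood near the level without target. It had values of 4.21, 4.30 and 4.34 in sro, below the Magnaporthe mean, against 4.73, 4.80 and 5.08 in WT, just above it. The log2 change was -0.59 (SE 0.10, adjusted p = 0.00624). Without moderation of the variances the adjusted p was 0.0635. With each sro array raised to its Magnaporthe mean, OsOPR12 was 1.13-fold lower in sro. Single Magnaporthe probe sets had means of 3.66 to 5.88, a range that includes the WT values, so that a smallest fold cannot be given.

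The genes OsOPR6, OsOPR5, OsOPR4, OsOPR3 and OPR1 follow one another on chromosome 6 with no other protein-coding gene between them, and the second OPR1 locus comes next. None of the 4 measured genes of this cluster was called by limma over all probe sets, and OsOPR4 and the brighter OsOPR5 probe set had an unadjusted p under 0.05. In the limma refit with 1 probe set per gene both were called, with an adjusted p of 0.0336 for OsOPR4 and 0.0419 for OsOPR5. In OsOPR4 (LOC4340486) the values were 4.95, 5.06 and 4.81 in sro, against 4.70, 4.64 and 4.75 in WT, near the Magnaporthe level. The log2 change was 0.24 (95% interval 0.07 to 0.42, adjusted p = 0.0712). OsOPR5 (LOC4340485) had 2 probe sets. The brighter had 5.15, 5.03 and 5.06 in sro, against 4.75, 4.95 and 4.55 in WT (log2 change 0.33, adjusted p = 0.067), and it passed the threshold without WT replicate 2 (0.43, adjusted p = 0.0177). The dimmer was below the Magnaporthe level in both groups, which overlapped, with a log2 change of -0.09 (95% interval -0.25 to 0.08). OsOPR6 (LOC4340484) had values of 4.78, 4.83 and 4.75 in sro and of 4.73, 4.68 and 4.78 in WT, with groups that overlapped (log2 change 0.06, 95% interval -0.08 to 0.19). OPR1 (LOC4340490) was below the Magnaporthe level in both, with a log2 change of -0.06 (adjusted p = 0.634). In such a cluster of like genes, signal of 1 gene on a probe set of another could not be checked here, since no probe sequences were used.

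OsJAR1 (LOC4339756, chromosome 5), which carries out the last step and is also named GH3.5, had the smallest p of the members. Its values were 6.66, 6.54 and 6.47 in sro, against 7.52, 7.25 and 7.57 in WT. Means were 6.56 ± 0.09 in sro and 7.45 ± 0.17 in WT (SD, n = 3 each). The lowest WT array was above the highest sro array by more than the range within either group. The log2 change was -0.89 (SE 0.10, 95% interval -1.11 to -0.67, adjusted p = 0.00111). It stayed past the threshold whichever array was left out, with changes between -0.99 and -0.83 and an adjusted p of up to 0.00683.

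**Figure D3:**
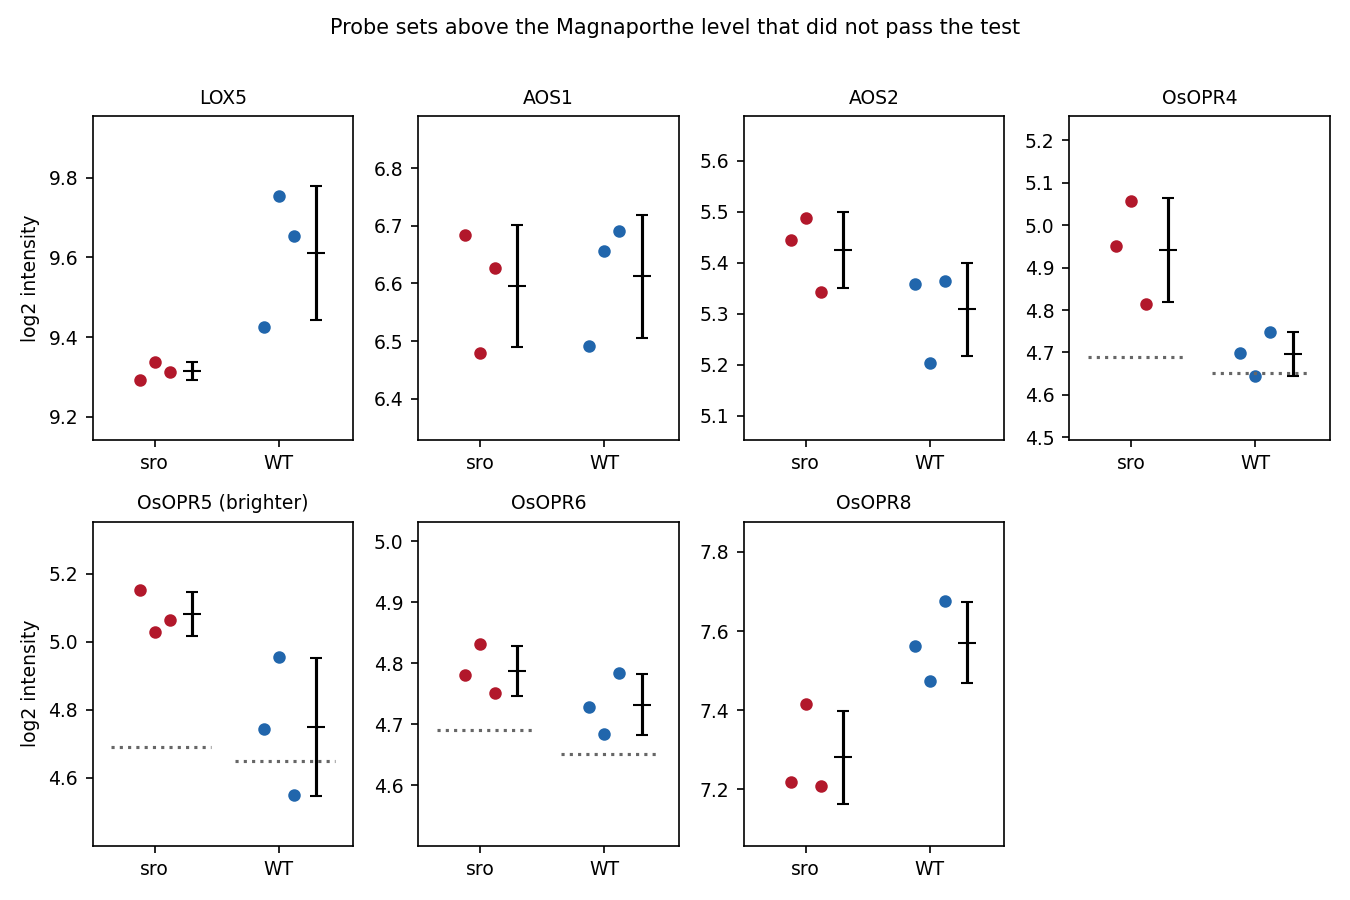
Log2 intensity (vertical axis, a separate scale per gene) of the 7 member probe sets above the Magnaporthe level that were not called, in the 3 sro arrays (red) and the 3 WT arrays (blue), with mean and SD beside them; dotted lines give each genotype's Magnaporthe mean where it falls in range. LOX5, OsOPR4, the brighter OsOPR5 probe set and OsOPR8 show groups that do not overlap, while AOS1, AOS2 and OsOPR6 overlap.

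By family name, the members above the Magnaporthe level were called as follows. Among all probe sets above it, 22.7% were called, with 14.5% lower. Of the lipoxygenases 2 of 3 such probe sets were called lower, and OsAOC and OsJAR1, each alone in its family, were called lower. Of the AOS genes 0 of 3 were called lower by limma and 1 was called higher. AOS1 and AOS2 had an unadjusted p of 0.847 and 0.142. Of 5 OPR probe sets above the level, OsOPR7 was called lower and 4 were not called. OsOPR12, also called lower, is not among them, since its mean over all arrays (4.58) was under the Magnaporthe mean over all arrays (4.67). These are counts of few genes, chosen by name, and families were not compared by a test. A family name does not show that a gene acts at that step of jasmonate synthesis, which was not tested.

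The 2 sro arrays with the highest dap spike, replicates 1 and 3, were left out in a further comparison of sro replicate 2 alone with the 3 WT arrays. Since no sro array overlapped WT in the 7 called members, their direction was fixed beforehand, and only size and p could differ. The log2 change was -0.34 for LOX2, -0.92 for LOX1.1, 0.56 for AOS3, -0.26 for OsAOC, -0.59 for OsOPR7, -0.57 for OsOPR12, whose sro value is below the Magnaporthe level, and -0.90 for OsJAR1. The 1 sro array had to be assumed to vary as the WT arrays do, so that only the sizes of change are given here.

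**Figure D4:**
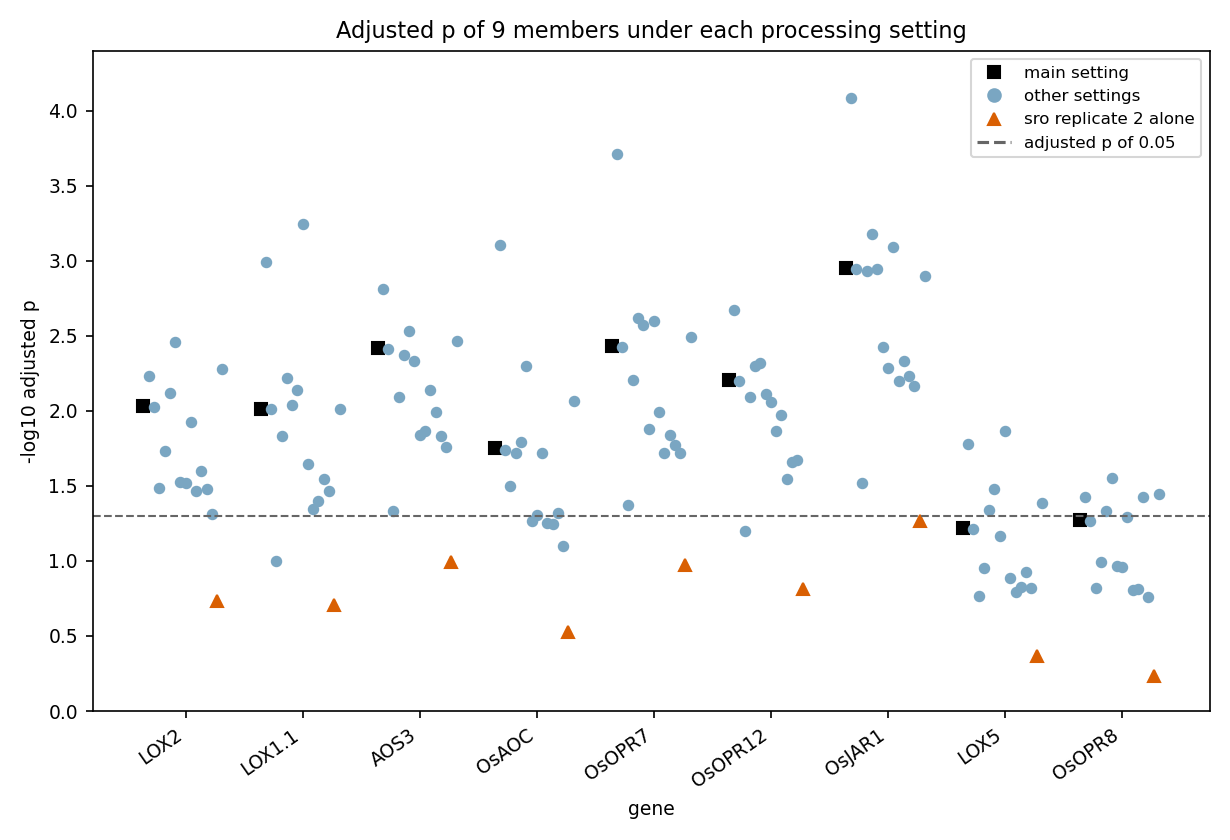
Minus log10 of the adjusted p (vertical axis) of the 7 called members and of LOX5 and OsOPR8 as reported (black squares), sro replicate 2 alone (orange triangles) and the other processing settings (blue points); the dashed line marks an adjusted p of 0.05. OsJAR1, OsOPR7, AOS3 and LOX2 fall below the line with sro replicate 2 alone and in no other setting, OsAOC lies on either side of it, and LOX5 and OsOPR8 cross it upward in some settings.

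Outside biosynthesis, 23 further genes of the pathway were found by name and measured, of which 5 rose, 4 fell and 14 were not called. A gene counts as called here by any of its probe sets. Among all probe sets 14.6% were called, and 22.7% of those above the Magnaporthe level. In the refit with 1 probe set per gene, 10 of these 23 genes were called, against 38.0% of all genes. Among the 13 genes named JAZ, which encode repressors of jasmonate responses, 3 rose (JAZ9, JAZ10 and JAZ13) and 3 fell (JAZ3, JAZ4 and JAZ8). JAZ13 had means of 9.33 ± 0.05 in sro and 4.52 ± 0.04 in WT (SD, n = 3 each, limma adjusted p = 1.62e-08). In WT JAZ13 and JAZ9 were below the Magnaporthe level. With each WT array below its Magnaporthe mean raised to it, they were 25.6-fold and 4.66-fold higher in sro. Single Magnaporthe probe sets had means of 3.66 to 5.88. That range includes these WT values, so that a smallest fold cannot be given. JAZ4 was called by 1 of its 2 probe sets (log2 change -0.53), and the other had -0.27 (adjusted p = 0.123). JAZ8 had 9.54 ± 0.02 in sro and 10.27 ± 0.06 in WT (adjusted p = 0.000308). Of 4 TIFY genes without a JAZ name, OsTIFY1a fell by 0.35 on the log2 scale. Of 5 perception and transcription genes, BHLH148 (log2 change 2.21) and the receptor gene COI1B (0.23, adjusted p = 0.0257) rose. COI1A had a log2 change of 0.02 and COI2 one of -0.13, and the 2 probe sets of NINJA1, which encodes an adaptor of the JAZ repressors, differed in sign (0.34 and -0.09), none of them called. MFP, a multifunctional enzyme gene of peroxisomal beta-oxidation, had a log2 change of -0.01 (adjusted p = 0.956). Genes of biosynthesis and these genes were measured on the same arrays, so that a shared direction is no independent evidence.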

How the data were processed

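Total RNA (500 ng per sample) was labelled as biotinylated cRNA with an Affymetrix 3 prime kit, per the labels' protocols. The values, deposited as 1 log2 intensity for each probe set and array, may come from RMA and Partek: the submitters' processing notes list both, with no version or role. The log2 scale was read from the values (2.34 to 14.37). Depth has no meaning for arrays, and their number (3 per genotype) limits precision. Values were used as deposited, and 123 AFFX control probe sets were left out of the tests. The array's design build is not given in the sources used here, so RefSeq (ASM3414082v1) served for names, chromosomes and gene order.

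limma 3.58.1 in R 4.3.3 (lmFit, eBayes without trend, no covariates, two-sided) was fitted across all 57258 probe sets, with Benjamini-Hochberg adjustment over all of them. Each adjusted p is from this fit unless another is named. Python 3.11.15 with SciPy 1.17.1 was used for tables and permutation tests. The level without target is the mean of 10 Magnaporthe probe sets (probe set means 3.66 to 5.88). Members, lists and that level were chosen with earlier results of these data known. Members with a called probe set, and those above that level, are given array by array; of each other list up to 4 genes with the smallest p are named, and JAZ3, JAZ4, OsTIFY1a and COI1A were added after their values were seen. A gene matched by the symbol DAD1 was dropped, since that symbol is shared with a cell death gene, and no hydroperoxide lyase, MYC2 or EG1 entry matched. Replicate numbers did not pair arrays: deviations from the group means of same-numbered arrays correlated at -0.028 to -0.004. In all, 15 alternative settings were tried.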

Additional observations from a re-analysis of the deposited data

How the results depend on the processing

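Of all probe sets, 8377 were called, against 4965 in an unmoderated linear model, 4589 to 7907 with 1 array left out (4589 without sro replicate 3, 5030 without sro replicate 1 and 5253 without WT replicate 3) and 668 with sro replicate 2 alone. The count of 7 called members was 0 with sro replicate 2 alone (limma; 10 at an unadjusted p under 0.05), where fewer arrays set the spread, and 11 with 1 probe set per gene, where fewer probe sets were tested. Under the other 13 settings it was 5 to 10. The 9 other pathway genes called became 5 with sro replicate 2 alone. With the replicate number as a block, a paired fit that the arrays' correlations do not call for, 6 members and 6315 probe sets were called, and OsAOC missed the threshold (adjusted p = 0.0541). With few arrays, changes as small as that of OsAOC were at the limit of the test, and 8 member probe sets lay below the Magnaporthe level in both genotypes, where no change can be read.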
